A study of Rattus norvegicus with 24 samples.

Results

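Oligodendrocytes wrap axons in myelin, and 32 genes of that lineage were followed through the striatum of adult rats exposed to immune activation before birth, to stress around puberty, or to both. The genes were chosen by name, as rows of the deposited expression table that encode myelin structure, myelin lipid synthesis or oligodendrocyte factors, and all 32 were found among the 17303 genes of the table. RNA came from bulk tissue of 2 regions of male Sprague-Dawley rats on postnatal day 90, the nucleus accumbens (NAc) and the dorsolateral striatum (DLS), and each region had 4 groups of 3 libraries. In the group with both exposures, the dam received lipopolysaccharide (LPS, a bacterial cell wall component that triggers innate immunity) on gestational days 15 and 16 and the male offspring went through unpredictable stress in adolescence. The offspring of the group with LPS alone had dams given LPS and were handled without stress, those with stress alone had dams given saline and were stressed, and the controls had dams given saline and were handled. The exposure before birth was to the dam, and the labels do not say which offspring shared a litter, nor whether an NAc and a DLS library came from the same rat. P-values therefore measure the spread between these libraries.

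The deposited values are strings of digits whose decimal point is missing, so a gene's level is known only up to a power of 10. A gene was read where its libraries lay within 0.5 decades of each other, a 3.162-fold range, and its values are given as log2 relative to the mean of 3 control libraries. A difference is likewise known only up to a factor of 10, levels cannot be compared between genes, and the sequencing depth is unknown. All 32 genes were above the value 1, read here as a value near 0, in all 24 libraries, as were all 13 striatal projection neuron markers found in the table. Ribosomal protein genes such as Rpl8 and Rps6 were listed as 1 in some library, and what a 1 meant there was not tested. Within the NAc 31 of the 32 genes lay within the range (all but Cntn2), within the DLS 30 (all but Mobp and Cntn2) and over both regions 27. Only the locus of Mog overlapped that of another listed gene, Zfp57, and how the authors' counting treated strand is not given in the sources used here. The libraries differed in a ribosomal protein index, the mean relative log2 of the ribosomal protein genes within range, which ran from -0.61 to 0.03 in the NAc and from -0.18 to 0.71 in the DLS on 1 scale. Its lowest NAc and DLS values were in a library with both exposures and in a library with LPS alone.

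Myelin is a stack of oligodendrocyte membrane, rich in galactolipid and cholesterol, that is held together by a small set of abundant proteins. Its genes are switched on together when precursors mature, under transcription factors that include OLIG2, SOX10 and the myelin regulatory factor MYRF, which stays active in mature oligodendrocytes. In the striatum the myelinated axons run largely in fibre bundles that cross the tissue, so bulk samples hold both the cells and their myelin mRNA.

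The promoters of several of these genes carry the letters of the core that MYRF binds, and 4 of them are shown because they belong to myelin membrane genes that were called lower in the NAc. Promoters, as RefSeq gives them for the rat assembly GRCr8 from 250 bases before to 50 bases after the gene start, were found for 22 of the 32 genes. No entry was matched for Mog, Olig1, Sox10, Myrf, Ermn, Car2, Bcas1, Enpp2, Lpar1 and Ndrg1. The 250 bases before the start are printed 5′ to 3′ on the gene's strand, with CTGGCAC or its reverse complement in capitals.

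Mag (chr1:95291045-95291294, minus strand): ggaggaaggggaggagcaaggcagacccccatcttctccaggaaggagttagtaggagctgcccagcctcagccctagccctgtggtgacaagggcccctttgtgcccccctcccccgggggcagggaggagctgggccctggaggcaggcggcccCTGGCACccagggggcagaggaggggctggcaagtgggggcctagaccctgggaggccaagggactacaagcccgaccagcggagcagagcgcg

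Cnp (chr10:86011254-86011503, plus strand): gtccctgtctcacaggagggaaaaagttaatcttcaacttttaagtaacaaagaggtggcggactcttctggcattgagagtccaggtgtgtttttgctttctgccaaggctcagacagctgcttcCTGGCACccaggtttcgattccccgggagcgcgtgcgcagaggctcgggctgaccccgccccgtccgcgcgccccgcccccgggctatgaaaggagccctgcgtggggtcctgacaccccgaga

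Mal (chr3:135341424-135341673, minus strand): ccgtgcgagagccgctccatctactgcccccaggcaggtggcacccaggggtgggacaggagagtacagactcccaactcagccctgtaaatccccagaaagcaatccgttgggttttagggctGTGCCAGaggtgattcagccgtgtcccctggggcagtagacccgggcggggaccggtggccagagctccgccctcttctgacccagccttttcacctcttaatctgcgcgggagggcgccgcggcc

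Opalin (chr1:249858191-249858440, minus strand): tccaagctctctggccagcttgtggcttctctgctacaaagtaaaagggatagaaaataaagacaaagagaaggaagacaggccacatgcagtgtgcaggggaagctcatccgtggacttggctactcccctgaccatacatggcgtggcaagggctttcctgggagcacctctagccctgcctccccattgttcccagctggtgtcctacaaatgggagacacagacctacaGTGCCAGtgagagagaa

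In Mag, an adhesion protein of the innermost myelin layer, the core ends 88 bases and in Cnp, an enzyme of non-compact myelin, 118 bases before the gene start. In Mal, a proteolipid of lipid-rich membrane, it ends 120 bases and in Opalin, an oligodendrocyte membrane glycoprotein, 11 bases before it. Olig2 also held it before the start and Enpp6 after it. On either strand, CTGGCAC was present in 6 of the 22 promoters (27.3%), against 4.75% of the 33469 promoters of the same length in the table. Other letters gave other shares. Either of the SOX cores ACAAAG and ACAATG was in 27.3% of the 22 promoters and 29.1% of all, the E-box CAGCTG was in 18.2% against 15.1%, and the E-box CATATG was in none of the 22 against 4.11%. The GC box GGGCGG was in 59.1% against 33.1%, and the promoters of the 22 genes had a median GC content of 65%, against 51.7% over all promoters. The motifs were searched separately and may overlap, as in the Enpp6 promoter, where CAGCTG ends at the base at which the MYRF core begins.

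The regions differed most. In the NAc, 20 of the 27 genes tested were lower than in the DLS on average over the 4 exposures, none was higher, and 7 did not pass the threshold of an adjusted p of 0.05 (limma, Benjamini-Hochberg adjustment over 7667 genes). Over all genes tested, 39.7% were called lower and 26.2% higher in the NAc, so the share of 74.1% among the myelin genes stood against a background in which most genes differed. The median difference was -0.38 log2 over the 27 genes and -0.08 over all genes tested. All but 2 of the 27, Ermn and Enpp6, had a difference below 0. In bulk tissue, fewer oligodendrocytes and less RNA per oligodendrocyte cannot be told apart. The ribosomal protein index moved with region too, with medians of -0.49 in the NAc and 0.30 in the DLS, and with the index as a covariate 21 of the 27 genes were called, among 1385 of all genes.

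Among the proteins of the myelin membrane and its contacts, 9 of the 11 tested were called lower in the NAc. Plekhb1, a pleckstrin homology domain protein, ran from -0.90 to -0.49 with a median of -0.69 in the 12 NAc libraries, and from -0.11 to 0.44 with a median of 0.08 in the 12 DLS libraries. Mog, on the outer face of the sheath, ran from -0.72 to -0.15 with a median of -0.55 in the NAc, against -0.10 to 0.40 with a median of 0.16 in the DLS. In both genes all NAc libraries lay below all DLS libraries, and the differences were -0.80 ± 0.06 for Plekhb1 (SE, adjusted p = 1.55e-08, a fold of 0.574) and -0.67 ± 0.07 for Mog (adjusted p = 1.47e-07, a fold of 0.629). Pllp, the tetraspan proteolipid plasmolipin, ran from -0.73 to -0.03 in the NAc with a median of -0.48 and from -0.06 to 0.60 in the DLS with a median of 0.24. Only 1 NAc library, stress alone replicate 3, reached into the DLS range of Pllp, and the difference was -0.69 ± 0.08 (adjusted p = 6.68e-07). Gjb1, the gap junction protein connexin of myelin, was lower by a difference of -0.56 ± 0.09 (adjusted p = 2.31e-05). Its 12 NAc libraries ran from -0.88 to -0.25 with a median of -0.59, and 11 of the 12 DLS libraries lay above all of them. Cldn11, which forms the tight junctions of the sheath, ran from -0.65 to -0.06 with a median of -0.23 in the NAc and from -0.08 to 0.51 with a median of 0.10 in the DLS, and its ranges overlapped slightly (difference -0.46 ± 0.07, adjusted p = 2.61e-05).

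The 4 genes with printed promoters were also lower in the NAc, but their ranges overlapped those of the DLS. Mag ran from -0.64 to 0.07 with a median of -0.38 in the NAc, against -0.41 to 0.49 with a median of 0.04 in the DLS (difference -0.45 ± 0.09, adjusted p = 0.00022). Opalin and Mal differed by -0.34 ± 0.11 and -0.32 ± 0.07 (adjusted p = 0.00874 and 0.000284), and with the ribosomal index as a covariate Opalin was at -0.52 and missed the threshold (adjusted p = 0.0547). Cnp was the weakest call: it ran from -0.54 to 0.02 with a median of -0.22 in the NAc and from -0.54 to 0.36 with a median of 0.01 in the DLS, and the difference was -0.25 ± 0.11 (adjusted p = 0.0424). Leaving out a library ended the Cnp call in 15 of 24 fits. The tetraspanin Tspan2 did not pass (-0.22 ± 0.11, adjusted p = 0.0688), but did with the covariate (-0.64, adjusted p = 0.00624) and with array weights (-0.27, adjusted p = 0.00366). Ermn, a late cytoskeletal protein of oligodendrocytes, had a difference of 0.23 ± 0.12 that did not pass (adjusted p = 0.0899) and that was -0.29 with the ribosomal index as a covariate (adjusted p = 0.209). Ermn was called higher in the NAc with library medians set to 0 (0.30, adjusted p = 0.0407) and with array weights (0.26, adjusted p = 0.00681). For this average, array weights called 22 of the 27 genes and 5893 of all 7667, and their estimation hit its iteration limit.

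**Figure D1:**
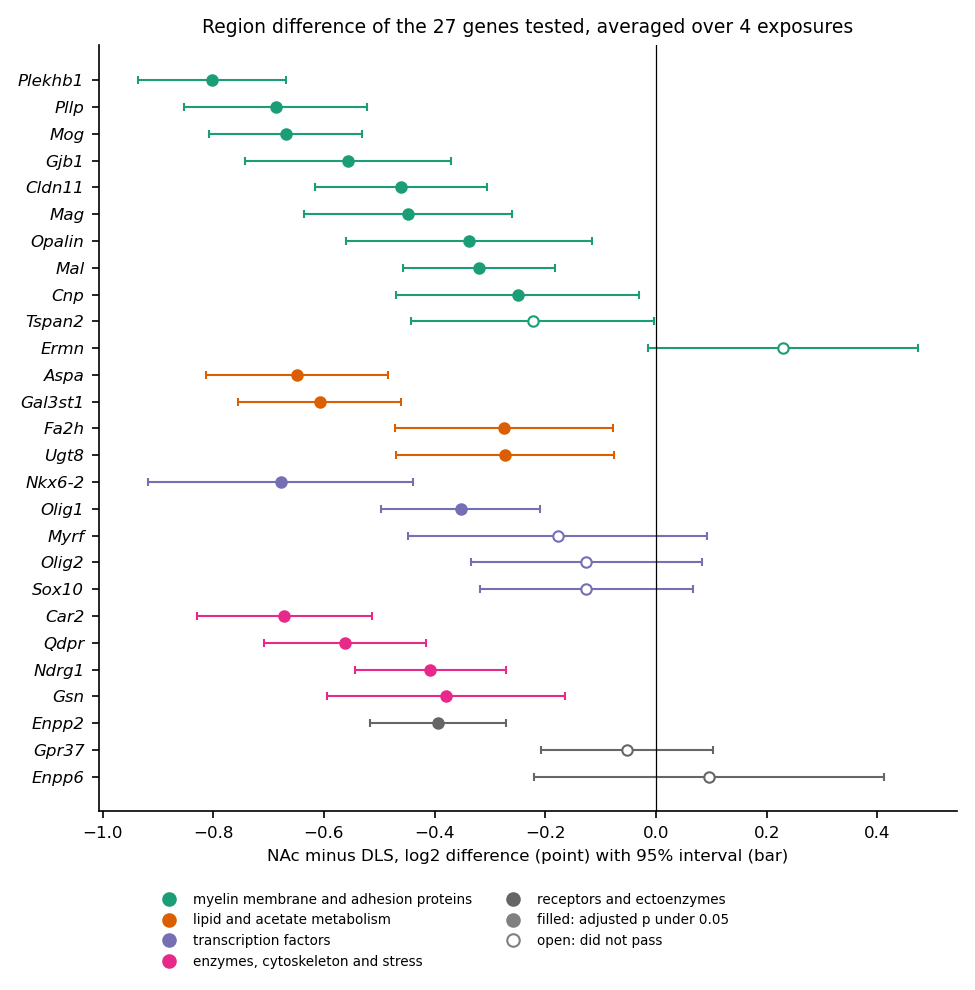
NAc minus DLS difference in log2 for the 27 genes within range over both regions, averaged over the 4 exposures and grouped by role; points are limma estimates and bars 95% intervals. The 20 filled points, all left of 0, passed the adjusted p of 0.05, and the 7 open points did not.

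All 4 genes of lipid and acetate metabolism were called lower in the NAc. Aspa, which splits N-acetylaspartate and so yields acetate, ran from -0.74 to -0.20 with a median of -0.53 in the NAc and from -0.08 to 0.55 with a median of 0.11 in the DLS. Gal3st1, which makes sulfatide from galactosylceramide, ran from -0.77 to -0.11 with a median of -0.38 in the NAc and from -0.08 to 0.70 with a median of 0.12 in the DLS. Neither gene overlapped between the regions, and the differences were -0.65 ± 0.08 for Aspa (adjusted p = 1.21e-06) and -0.61 ± 0.07 for Gal3st1 (adjusted p = 7.62e-07). Ugt8, which makes galactosylceramide, and Fa2h, which hydroxylates the fatty acids of myelin sphingolipids, had smaller differences of -0.27 ± 0.09 each, with overlapping ranges (adjusted p = 0.0154 and 0.015). Both missed the threshold when library medians were set to 0 (adjusted p = 0.0761 and 0.0732).

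The enzyme, cytoskeletal and stress genes were likewise 4 of 4 lower in the NAc. Car2, the carbonic anhydrase of oligodendrocytes, ran from -0.80 to -0.39 with a median of -0.49 in the NAc, below all DLS libraries, which ran from -0.31 to 0.41 with a median of 0.15 (difference -0.67 ± 0.08, adjusted p = 5.81e-07). Qdpr, which recycles tetrahydrobiopterin, ran from -0.74 to -0.16 with a median of -0.40 in the NAc and from -0.19 to 0.41 with a median of 0.17 in the DLS (difference -0.56 ± 0.07, adjusted p = 1.61e-06). Ndrg1, a stress-responsive gene, and the actin-severing Gsn differed by -0.41 ± 0.07 and -0.38 ± 0.10 (adjusted p = 2.37e-05 and 0.00313). With the ribosomal index as a covariate Gsn was at -0.31 and missed the threshold (adjusted p = 0.248). Ndrg1 did not overlap between the regions, by a margin of under 0.01 log2, and Gsn did. In all, 6 of the 27 genes had every NAc library below every DLS library (Mog, Gal3st1, Aspa, Car2, Plekhb1 and Ndrg1), a share of 22.2%, against 3.57% of all genes tested.

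The transcription factors were split. Nkx6-2, a homeodomain factor, ran from -0.77 to 0.07 with a median of -0.46 in the NAc and from -0.49 to 0.69 with a median of 0.35 in the DLS (difference -0.68 ± 0.12, adjusted p = 4.2e-05). With the ribosomal index as a covariate the difference of Nkx6-2 was -0.10 (adjusted p = 0.655). Olig1 was lower by -0.35 ± 0.07 (adjusted p = 0.000172). Olig2, Sox10 and Myrf did not pass. Olig2 ran from -0.56 to 0.30 with a median of -0.04 in the NAc and from -0.65 to 0.45 with a median of 0.04 in the DLS, a difference of -0.13 with a 95% interval from -0.34 to 0.08 (adjusted p = 0.274). Sox10 ran from -0.60 to 0.09 with a median of -0.16 in the NAc and from -0.53 to 0.20 with a median of -0.10 in the DLS (difference -0.13 ± 0.09, adjusted p = 0.239). Myrf ran from -0.99 to 0.24 with a median of -0.24 in the NAc and from -0.76 to 0.14 with a median of -0.09 in the DLS (difference -0.18 ± 0.13, adjusted p = 0.234). With the ribosomal index as a covariate all 3 were called lower in the NAc, at -0.48 for Olig2, -0.53 for Sox10 and -0.75 for Myrf (adjusted p = 0.0321, 0.00535 and 0.00581). Whether these factors differed less between the regions than the membrane genes was not tested.

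Of the receptors and secreted or membrane-bound enzymes, Enpp2, or autotaxin, which makes lysophosphatidic acid, was lower by -0.39 ± 0.06 (adjusted p = 1.2e-05). Gpr37, a receptor that holds back oligodendrocyte differentiation in mice, differed by -0.05 ± 0.07 (adjusted p = 0.545), and Enpp6, a choline phosphodiesterase of newly forming oligodendrocytes, by 0.10 ± 0.15 (adjusted p = 0.593). The missing decimal point leaves 5 genes with 2 readings each. Mbp, which compacts the cytoplasmic faces of myelin, was either lower in the NAc by -1.57 log2 or higher by 1.75. The corresponding readings were -1.04 or 2.29 for Mobp, a basic protein of compact myelin, and -1.40 or 1.93 for Bcas1, a marker of newly formed oligodendrocytes. They were -0.92 or 2.40 for Lpar1, a receptor of lysophosphatidic acid, and -2.65 or 0.67 for Cntn2, the juxtaparanodal adhesion protein contactin. If the regions are joined by the shorter way, 23 of 30 genes were called, Mbp, Bcas1 and Lpar1 among those tested. Mobp and Cntn2 were in no version of that fit.

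**Figure D2:**
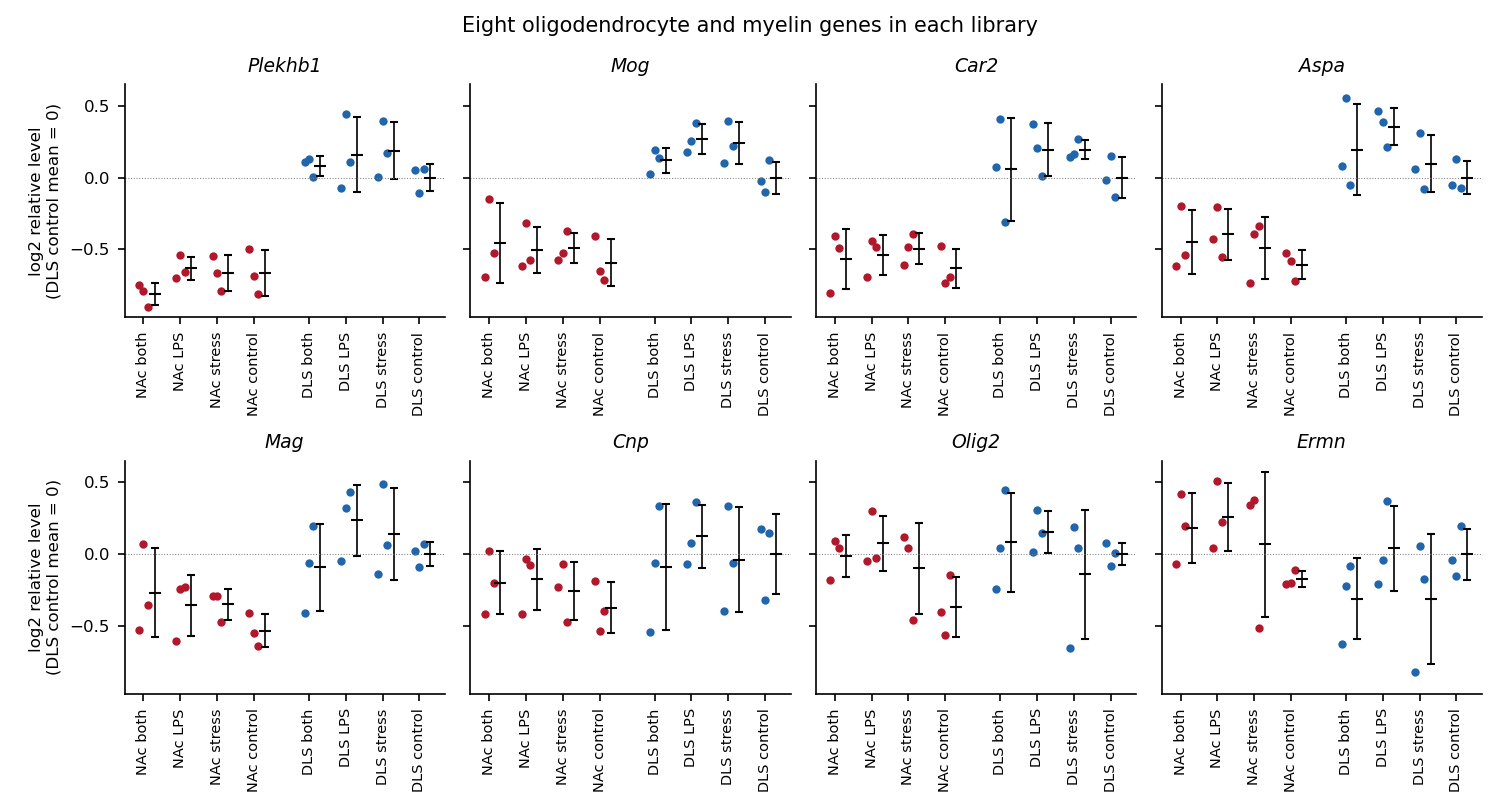
Relative log2 level of 8 genes in each of the 24 libraries (0 is the mean of the DLS controls), with NAc groups in red and DLS groups in blue and, within each region, both exposures, LPS alone, stress alone and controls. Bars beside the points are mean and SD of 3 libraries; the red points of Plekhb1, Mog, Car2 and Aspa lie below all blue points, and those of Mag, Cnp, Olig2 and Ermn overlap them.

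Region differences were called within each exposure group. Among animals with both exposures 9 of the 27 genes were called lower in the NAc (background 20.9%), among those with LPS alone 14 (background 20%), among those with stress alone 14 (background 22.1%) and among controls 9 (background 5.99%). These 4 comparisons share no library. They come from 1 fit, however, in which all groups share 1 spread per gene, so their calls are not independent. In all 4 of them 6 genes were called lower, namely Aspa, Car2, Mog, Pllp, Plekhb1 and Qdpr, which is 22.2% of the 27 against 3.64% of all genes tested. The median over the 27 genes was -0.29 with both exposures, -0.46 with LPS alone, -0.38 with stress alone and -0.45 in controls, against -0.08, -0.08, -0.08 and -0.05 over all genes tested. With the ribosomal index as a covariate the counts were 1 with both exposures, 7 with LPS alone, 8 with stress alone and 16 in controls. Of all 7667 genes, 56, 351, 503 and 857 were then called, while the medians over the 27 genes were -0.49, -0.56, -0.56 and -0.51. Fits of only the 6 libraries compared gave 3 calls of 29 with both exposures, 12 of 28 with LPS alone, 8 of 28 with stress alone and 5 of 29 in controls. Over all genes, in the same order, these fits gave 1227 of 9694, 2610 of 9809, 1223 of 9605 and 447 of 10601. With both exposures the share among the myelin genes was thus not above that among all genes. Counts within a group leaned on single libraries: with both exposures it was 2 without DLS replicate 2, 4 without NAc replicate 1 and 5 without NAc replicate 3. With stress alone it was 8 without DLS replicate 2, 7 without NAc replicate 1 and 8 without NAc replicate 2, and in controls it was 3 and 4 without DLS replicates 2 and 3 and 1 and 5 without NAc replicates 2 and 3. Without NAc replicate 1 of LPS alone the median of that group was -0.28. The region difference depended on exposure at an adjusted p under 0.05 for 0 of the 27 genes and 0 of all 7667 (limma). At an unadjusted p under 0.05 there were 0 of the 27, and 3.17%, 4.51% and 5.95% of all genes for both exposures, LPS alone and stress alone. With array weights, whose estimation over both regions hit its iteration limit, there were 8 calls among the 27 genes and 7307 among all 7667. These calls are summed over the 3 exposed groups, so a gene can count up to 3 times.

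Related gene lists are set beside the difference, against 39.7% of all genes called lower and 26.2% called higher in the NAc. Of 17 other oligodendrocyte genes within range, 12 were called lower in the NAc and 1 higher. Apod, the lipid carrier apolipoprotein D, differed by -1.08 ± 0.08 (adjusted p = 5.41e-09) and Sirt2, a deacetylase, by -0.51 ± 0.07 (adjusted p = 2.11e-06). The gene called higher was Efnb3, an ephrin also made by neurons (0.69 ± 0.08, adjusted p = 4.55e-07). Precursor genes went both ways: of 9 within range 5 were called higher in the NAc, among them Pdgfra, the growth factor receptor of oligodendrocyte precursors (0.83 ± 0.12, adjusted p = 6.67e-06), and Ptprz1 (0.73 ± 0.08, adjusted p = 2.37e-07), and 4 were called lower, led by Bmp4 (-0.87 ± 0.10, adjusted p = 7.54e-07). Of 16 genes of cholesterol synthesis, 12 were called lower in the NAc, such as Tm7sf2 (-0.83 ± 0.09, adjusted p = 4.06e-07) and Idi1 (-0.59 ± 0.10, adjusted p = 3.03e-05). Of the list 2 were called higher, among them Srebf2, a transcription factor of the pathway (0.24 ± 0.09, adjusted p = 0.0177). Other genes of sphingolipid and galactolipid handling were 4 higher and 1 lower of 11, and axonal partners at nodes and paranodes 1 higher and 4 lower of 6.

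Some markers of other cells were also called between the regions, where 26.2% of all genes tested were called higher and 39.7% lower in the NAc. Whether any of these lists differed from all genes was not tested. Astrocyte markers were 4 higher and 5 lower of 11, microglia markers 0 higher and 4 lower of 6, endothelial and mural markers 4 higher and 1 lower of 8, striatal projection neuron markers 0 higher and 5 lower of 6, and general neuron markers 1 higher and 2 lower of 7. All 18 ribosomal protein genes within range were called lower in the NAc. The mean relative log2 over the striatal neuron markers ran from -0.85 to -0.31 in the NAc and from -0.54 to 0.19 in the DLS, and over the microglia markers from -0.21 to 0.16 in the NAc and from -0.09 to 0.68 in the DLS. The part of these markers in the myelin gene differences was not tested.

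Within the NAc, no oligodendrocyte or myelin gene changed with exposure at an adjusted p under 0.05, nor did any of the 10616 genes tested (limma). At an unadjusted p under 0.05 there were 2.08% of all genes for both exposures, 3.06% for LPS alone and 1.29% for stress alone, and 0, 2 and 1 of the 31 (Olig2 and Ugt8, and Olig1). With array weights, 3 of the 31 genes and 634 of all genes were called for LPS alone. The 3 exposed groups share 1 control group, so their differences are given side by side. With both exposures 29 of the 31 genes had a mean above the controls (50% of all genes did), with LPS alone 30 (51.6% of all) and with stress alone 29 (52.5% of all). The median difference was 0.19 with both exposures, 0.21 with LPS alone and 0.18 with stress alone, against 0.00 or 0.01 over all genes tested, and the median SE of a gene's difference was 0.17. Without replicate 2 of both exposures that median was 0.09 and without replicate 1 it was 0.30, and without replicate 2 of LPS alone the median of that group was 0.12. Plekhb1 and Gsn were the exceptions. Gsn had a mean below the controls in all 3 exposed groups, with differences of -0.23, -0.09 and -0.18 (both exposures, LPS alone and stress alone), and its controls alone ran from -0.47 to 0.42.

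Values per library show how far the NAc groups overlapped. Olig2 was at 0.19, 0.46 and 0.41 with both exposures, 0.32, 0.67 and 0.34 with LPS alone and 0.49, 0.41 and -0.09 with stress alone, against -0.03, -0.19 and 0.22 in controls. All LPS-alone libraries of Olig2 lay above the controls, and the difference was 0.44 ± 0.17 (adjusted p = 0.935, limma). Ugt8 was at 0.02, 0.47 and 0.36 with both exposures, 0.10, 0.65 and 0.49 with LPS alone and 0.43, 0.49 and -0.01 with stress alone, against 0.06, -0.07 and 0.01 in controls. Its LPS-alone libraries were all above the controls (0.41 ± 0.18, adjusted p = 0.935), and in each of the other exposed groups 1 library was within their range. Olig1 was at 0.03, 0.28 and 0.21 with both exposures, -0.12, 0.37 and 0.22 with LPS alone and 0.40, 0.41 and 0.34 with stress alone, against 0.12, -0.04 and -0.08 in controls. Here the stress-alone libraries stood above the controls (0.38 ± 0.13, adjusted p = 1). Qdpr and Mal had differences of 0.28 ± 0.13 and 0.27 ± 0.13 with LPS alone (adjusted p = 0.935 for both), and Gal3st1 of 0.29 ± 0.14 with both exposures (adjusted p = 0.962).

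Mbp could be read within the NAc, where it was at -0.24, 0.47 and 0.21 with both exposures, -0.05, 0.63 and 0.29 with LPS alone and 0.21, 0.28 and 0.12 with stress alone, against 0.27, -0.18 and -0.09 in controls. Each exposed group of Mbp overlapped the controls (differences 0.15 ± 0.21, 0.29 ± 0.21 and 0.21 ± 0.21, adjusted p = 0.962, 0.935 and 1, limma).

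Groups that did not overlap the controls were few in the NAc. All libraries lay above all controls for 1 of the 31 genes with both exposures (Ermn, 3.23%, background 3.41%), for 4 with LPS alone (Ugt8, Olig2, Ermn and Fa2h, 12.9%, background 4.84%) and for 3 with stress alone (Olig1, Mal and Gjb1, 9.68%, background 2.11%). The LPS by stress interaction, which asks whether both exposures together differed from the sum of each alone, was below 0 for 30 of the 31 genes (53.2% of all genes) with a median of -0.18. It reuses the controls and the groups of each single exposure, so it is not separate from the differences from controls given above. No gene passed, and at an unadjusted p under 0.05 there were 0 of the 31 and 1.78% of all genes. The main effect of LPS over both stress conditions had a median of 0.13 and that of stress 0.07, against an unadjusted p under 0.05 in 3.55% of all genes for LPS and 0.895% for stress. Of the 31 genes only Qdpr had one, for LPS (0.22 ± 0.09, adjusted p = 0.823, limma). The index over the 31 genes ran from -0.03 to 0.42 with both exposures, from -0.01 to 0.43 with LPS alone and from 0.03 to 0.27 with stress alone, against -0.09 to 0.10 in controls, so 1 library in each exposed group lay among the controls. Over these groups the ribosomal index ran from -0.34 to -0.17, from -0.21 to -0.10 and from -0.25 to 0.36, against -0.22 to 0.41 in controls. The highest values were in stress alone replicate 3 and control replicate 1. With both exposures 0 of 69 ribosomal protein genes, 1 of 13 microglia markers and 1 of 12 striatal projection neuron markers had a mean above the controls, against 50% of all genes. The part of these lists in the myelin gene values was not tested.

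Within the DLS, too, no oligodendrocyte or myelin gene and none of the 9275 genes tested passed an adjusted p of 0.05 in any of the 6 comparisons (limma). At an unadjusted p under 0.05 there were 3.27% of all genes for both exposures, 3.25% for LPS alone and 14.6% for stress alone, and 0, 3 and 3 of the 30 (Pllp, Mal and Gsn, and Pllp, Olig1 and Gal3st1). With array weights 3, 6 and 3 of the 30 genes were called for both exposures, LPS alone and stress alone, among 2507, 2469 and 1186 of all genes. With both exposures 18 of the 30 genes had a mean above the controls (51.6% of all genes did), with LPS alone 28 (53.6% of all) and with stress alone 21 (53.5% of all). The medians were 0.06 with both exposures, 0.20 with LPS alone and 0.14 with stress alone, against 0.01, 0.02 and 0.02 over all genes, with a median SE of 0.20 per gene. Leaving out stress alone replicate 2 brought the stress-alone median to 0.01, and leaving out replicate 1 of that group brought it to 0.24. Without replicate 2 of both exposures the median of that group was -0.01, and without replicate 1 it was 0.12.

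Pllp was at 0.18, 0.22 and 0.01 with both exposures, 0.26, 0.47 and 0.32 with LPS alone and 0.35, 0.60 and 0.34 with stress alone, against -0.06, 0.02 and 0.04 in controls. Its LPS-alone and stress-alone libraries all lay above the controls, with differences of 0.35 ± 0.13 (adjusted p = 0.967) and 0.43 ± 0.13 (adjusted p = 0.294). Mal was at 0.10, 0.33 and 0.27 with both exposures, 0.26, 0.14 and 0.59 with LPS alone and 0.28, 0.42 and 0.23 with stress alone, against 0.08, -0.17 and 0.08 in controls. Every exposed library of Mal exceeded the controls, and the largest of its differences was 0.33 ± 0.15 with LPS alone (adjusted p = 0.967). Gsn was at 0.67, 0.10 and 0.27 with both exposures, 0.34, 0.30 and 0.52 with LPS alone and 0.14, 0.65 and 0.15 with stress alone, against 0.06, -0.04 and -0.03 in controls. Gsn too was above the controls in every exposed library (0.39 ± 0.18 with LPS alone, adjusted p = 0.967), whereas in the NAc its differences were below 0. Olig1 was at 0.20, 0.13 and 0.31 with both exposures, 0.25, 0.08 and 0.30 with LPS alone and 0.33, 0.81 and 0.23 with stress alone, against 0.05, -0.08 and 0.04 in controls. Olig1 was the third gene above the controls in all 9 exposed libraries, with its largest difference under stress alone (0.46 ± 0.16, adjusted p = 0.294). These 3 were 10% of the 30 genes, against 1% of all genes tested, and the 3 exposed groups share the same 3 controls.

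Myrf and Sox10 had means below the controls in all 3 exposed DLS groups, but with wide spread. Myrf was at -0.58, -0.38 and 0.14 with both exposures, -0.37, -0.11 and 0.14 with LPS alone and -0.76, 0.09 and -0.21 with stress alone, against -0.06, -0.05 and 0.12 in controls. The ranges overlapped in every group, and the differences were -0.27 ± 0.23, -0.12 ± 0.23 and -0.29 ± 0.23 (adjusted p = 0.908, 0.972 and 0.545). Ermn had a difference of -0.31 ± 0.24 both with both exposures and with stress alone (adjusted p = 0.908 and 0.52), and with the ribosomal index as a covariate that with both exposures was -0.05. In the NAc, Myrf, Sox10 and Ermn had means above the controls in all 3 exposed groups. The dependence of the region difference on exposure was not called for these 3 genes (for Ermn 0.67 with both exposures, 0.39 with LPS alone and 0.56 with stress alone, adjusted p = 0.8, 0.774 and 0.719). With array weights it was called for Ermn in all 3 (0.72, 0.66 and 0.78, adjusted p = 0.0217, 0.0172 and 0.0271). With the same weights it was called for Myrf with both exposures (0.86, adjusted p = 0.0223) and with LPS alone (0.79, adjusted p = 0.0182), where without weights the values were 0.71 and 0.47 (adjusted p = 0.8 and 0.774). Summed over the 3 exposed groups, these weights gave 8 calls among the 27 genes and 7307 among all 7667. A gene can count up to 3 times there, and the estimation of these weights hit its iteration limit.

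**Figure D3:**
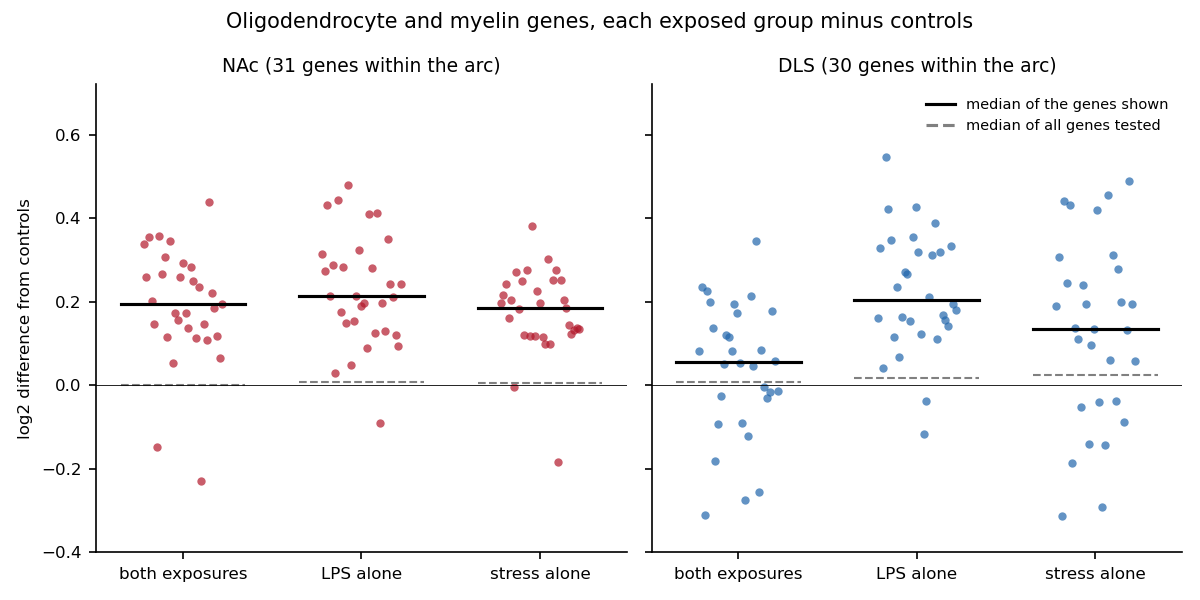
Log2 difference from the controls of the same region for each gene within range, 31 in the NAc and 30 in the DLS, with both exposures, LPS alone and stress alone. Solid lines are the medians of the genes shown (0.19, 0.21 and 0.18 in the NAc, 0.06, 0.20 and 0.14 in the DLS) and dashed lines the medians of all genes tested, which lie near 0.

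All 3 LPS-alone libraries lay above all 3 controls for 12 of the 30 genes in the DLS (40%, background 5.33%), which were Mog, Cldn11, Pllp, Gal3st1, Olig1, Aspa, Mal, Gjb1, Qdpr, Gsn, Enpp2 and Ndrg1. With both exposures this held for 3 genes (Olig1, Mal and Gsn, 10%, background 3.99%) and with stress alone for 6 (Pllp, Gal3st1, Olig1, Mal, Nkx6-2 and Gsn, 20%, background 14.9%). Mog was at 0.18, 0.26 and 0.38 with LPS alone, against -0.02, -0.10 and 0.12 in controls (0.27 ± 0.13, adjusted p = 0.967). The index over the 30 genes ran from -0.11 to 0.16 with both exposures, from 0.15 to 0.29 with LPS alone and from -0.10 to 0.38 with stress alone, against -0.03 to 0.04 in controls. The LPS-alone range stood clear of the controls, and the other ranges spanned them.

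The interaction was below 0 for 27 of the 30 genes in the DLS (54.2% of all genes), with a median of -0.33 against -0.03 over all genes. It used the control group with a positive sign and each single exposure with a negative one, so it is not separate from the differences above. Pllp had an interaction of -0.64 ± 0.18, Gal3st1 of -0.69 ± 0.22, Cldn11 of -0.51 ± 0.22 and Mog of -0.39 ± 0.19, and all had an adjusted p of 0.829 (limma). At an unadjusted p under 0.05 there were 3 of the 30 (Pllp, Gal3st1 and Cldn11) and 5.19% of all genes. Gal3st1 was at 0.08, 0.16 and -0.08 with both exposures, 0.32, 0.33 and 0.31 with LPS alone and 0.49, 0.70 and 0.07 with stress alone, against -0.07, 0.03 and 0.05 in controls. Its libraries with both exposures lay on both sides of the controls. Those of either exposure alone all lay above the controls, the lowest of them, at 0.07 with stress alone, by a small margin. The main effects had medians of 0.05 for LPS and -0.0018 for stress, and 0 of the 30 genes had an unadjusted p under 0.05 in either, against 1.61% and 7.29% of all genes.

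In the DLS the microglia markers stood apart from the controls in every exposed group, and the ribosomal index overlapped the controls in each. The ranges of the astrocyte, endothelial and mural, striatal projection neuron and general neuron markers also overlapped those of the controls. The mean over the node and paranode partners lay below the controls with stress alone (-0.18 to -0.12, against -0.05 to 0.09). That over the other oligodendrocyte genes lay above the controls with LPS alone (0.08 to 0.20, against -0.06 to 0.03). The ribosomal index ran from -0.15 to 0.81 with both exposures, from -0.19 to 0.72 with LPS alone and from 0.32 to 0.86 with stress alone, against -0.18 to 0.36 in controls. The mean over the microglia markers ran from 0.30 to 0.36 with both exposures, from 0.17 to 0.55 with LPS alone and from 0.13 to 0.70 with stress alone, against -0.09 to 0.09 in controls, so every exposed library stood above the controls. Of 12 microglia markers, 10 had a mean above the controls in each of the 3 groups, with medians of 0.37, 0.41 and 0.64, and none was called. With the ribosomal index as a covariate, the median over the myelin genes was 0.28 for LPS alone and 0.20 for stress alone, and still no gene was called. The part of the microglia markers was not tested. Among 23 other oligodendrocyte genes in the DLS, 16, 19 and 18 had means above the controls with both exposures, LPS alone and stress alone (medians 0.05, 0.17 and 0.17), and of 18 cholesterol synthesis genes 12, 16 and 14 (medians 0.02, 0.16 and 0.16). Of all genes tested in the DLS, 51.6%, 53.6% and 53.5% had means above the controls. The mean over the DLS precursor genes ran from -0.16 to 0.28 with both exposures, from -0.11 to 0.22 with LPS alone and from 0.00 to 0.43 with stress alone. All 3 ranges overlapped the controls, at -0.27 to 0.18. In the NAc, where 11 precursor genes were within range, 10, 10 and 11 had means above the controls (medians 0.15, 0.15 and 0.15), against 50%, 51.6% and 52.5% of all genes.

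Genes of the set did not move as 1 block across the DLS libraries. Mbp was at 0.10, 0.57 and -0.07 with both exposures, 0.36, 0.96 and -0.06 with LPS alone and -0.04, 0.58 and 0.20 with stress alone, against -0.23, 0.36 and -0.13 in controls. Cnp was at -0.54, -0.06 and 0.33 with both exposures, -0.07, 0.07 and 0.36 with LPS alone and -0.40, 0.34 and -0.06 with stress alone, against 0.17, -0.32 and 0.15 in controls. The difference Mbp minus Cnp ran from 0.24 to 0.89 in the 8 DLS libraries with a ribosomal index above 0 and from -0.42 to -0.28 in the 4 with an index below 0. Those 4 libraries were replicate 3 of both exposures, replicate 3 of LPS alone and replicates 1 and 3 of the controls, and in each of them Mbp was below and Cnp above the control mean. All 3 stress-alone libraries were among the 8. In the NAc, Mbp minus Cnp ran from 0.09 to 0.22 in the 2 libraries with an index above 0 and from -0.19 to 0.29 in the other 10. The genes and the division at an index of 0 were chosen after their values were seen. The split crossed the exposure groups, and the part of RNA quality or library preparation in it was not tested.

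**Figure D4:**
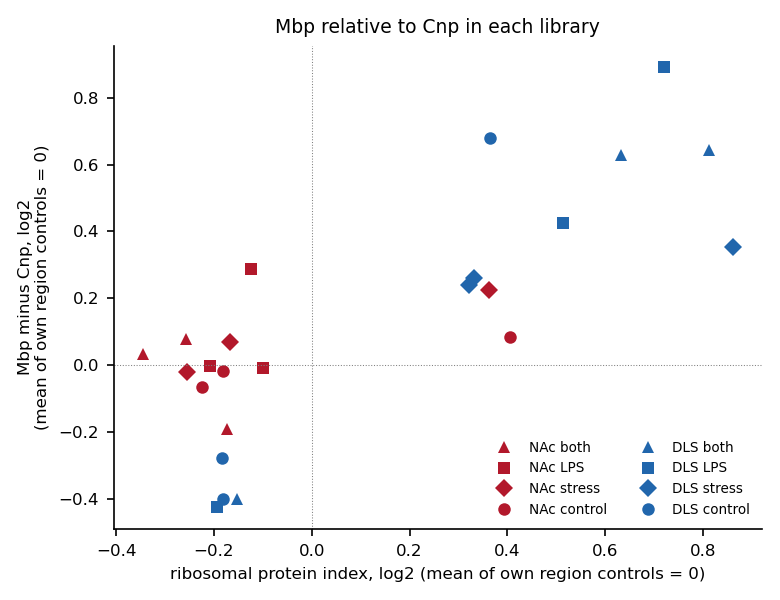
Mbp minus Cnp in log2 against the ribosomal protein index of each library, both relative to the mean of the controls of the same region; colours give the region and symbols the exposure group. The 8 blue points right of 0 lie between 0.24 and 0.89 and the 4 blue points left of 0 between -0.42 and -0.28, and the red points lie between -0.19 and 0.29.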

How the data were processed

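RNA from bulk NAc and DLS was made into poly(A)-selected, strand-specific libraries, per the labels' protocols, with 14 PCR cycles. The submitters' processing notes name the aligner STAR (2.6.25.17) and the quantifier Cuffdiff (2.2.1); for the build and the annotation, nothing is given in the sources used here. The table is headed FPKM, but the authors deposited digit strings without a decimal separator, treated here as a score. Of 415272 values, 97026 are listed as 1. The log10 digits of each gene were placed on a circle of 1 decade, opened at the largest gap, and used where all libraries of the fit lay within 0.5 decades and above 1: 10616 genes in the NAc, 9275 in the DLS and 7667 over both. Larger differences are lost or can turn sign. Planned FPKM models, pseudocounts and filters on low values could not be applied.

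limma 3.58.1 in R 4.3.3 (eBayes, no trend) fitted 4 group means per region (8 residual degrees of freedom) and 8 over both regions (16), and p-values were adjusted by Benjamini-Hochberg over all genes in the fit. Errors are SE from limma; n is 3 per group. The procedure was run on simulated digits whose spreads were drawn from genes already within range. That run cannot show whether the relative levels of the real genes were recovered. Members and gene lists were chosen with earlier results of these data known. Named genes were up to 10 passing genes with the largest difference per comparison, otherwise the 4 with the smallest p, besides Mbp, Mog, Mag, Cnp, Mobp, Olig2, Sox10 and Myrf. Genes of other lists were named after their values were seen. Alternatives were other arcs (0.3 and 0.7), library medians set to 0, array weights, robust empirical Bayes, other fits, leaving out each library and, added after seeing the data, the ribosomal index as a covariate and regions joined by the shorter way.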

Additional observations from a re-analysis of the deposited data

How the results depend on the processing

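Genes counted are the oligodendrocyte and myelin genes, then all genes tested. An arc of 0.3 decades leaves 6 of these genes and 4111 of all, and the region calls averaged over exposures fell to 4 and 2364. Those within both exposures, LPS alone, stress alone and controls fell to 1 and 701, 1 and 813, 0 and 861, and 1 and 206. With the ribosomal index as a covariate the average had 1385 of all genes. The 4 groups, in that order, had 1 and 56, 7 and 351, 8 and 503, and 16 and 857 (controls), with medians of these genes farther from 0 (-0.49, -0.56, -0.56 and -0.51). Fits of only the 6 libraries compared gave 3 and 1227 with both exposures, 12 and 2610 with LPS alone, 8 and 1223 with stress alone and 5 and 447 in controls. Array weights (0.233 to 3.59 in the DLS), whose estimation hit its iteration limit in the NAc and over both regions (0.0881 to 4.40 and 0.156 to 5.68), gave 16 and 4758 with both exposures, 4951 of all genes with LPS alone, 4139 with stress alone, and 23 and 2681 in controls. They also called 3 and 2507 (both exposures), 6 and 2469 (LPS alone), 3 and 1186 (stress alone) and 217 of all genes (stress main effect) in the DLS, and 3 and 634 for LPS alone in the NAc. For the exposure dependence of the region difference they gave 8 and 7307 calls, summed over its 3 comparisons. An arc of 0.7 decades called 1 gene of all for LPS alone in the NAc, and joining regions by the shorter way called 1054 of all in controls. The causes were not tested. By construction, a narrower arc holds fewer genes and a fit of 6 libraries holds fewer samples. Signs turned for Ermn (-0.29) and Enpp6 (-0.54) averaged over exposures and Nkx6-2 with both exposures (0.15) under the covariate, and for Gpr37 (0.015) with library medians at 0; none of these 4 was called after turning.

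Leaving out a library gave 19 to 21 region calls averaged over exposures (4846 to 5354 of all genes), 2 to 10 with both exposures (918 to 3664), 10 to 15 with LPS alone (646 to 3220), 7 to 14 with stress alone (1165 to 3739) and 1 to 10 in controls (191 to 847). Exposure calls within a region stayed at 0 for these genes and at 0 to 1 of all genes. Ermn, besides the settings given above, passed (0.27 to 0.30, higher in the NAc) without DLS LPS-alone replicate 3, DLS stress-alone replicate 2 or NAc stress-alone replicate 3. Over 4597 comparisons of a value with an alternative, the direction and the side of the threshold, or the size of a count or median, held in 4347. No paired analysis was possible because the labels tie no libraries together by animal or litter, and the replicate numbers used here follow the order of deposit and name libraries only. Depth is unknown, and with 3 libraries a group the median SE of an exposure difference was 0.17 in the NAc and 0.20 in the DLS.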
